A study of Arabidopsis thaliana with 4 samples.

Results

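The cold-regulated (COR) genes of Arabidopsis thaliana were followed through 10 of the 22746 probe sets of a microarray data set on shoot apices. The set was defined by name as RD29A (also COR78), RD29B, COR47, ERD10, KIN1/KIN2, COR15A, COR15B, LTI30, RAB18 and COR414-TM1, and covers 11 genes because 1 probe set, that of KIN1 and KIN2, detects both. The list was drawn up with the values of all 4 arrays known, so these values are given as a description and no test was made on them. The platform annotation used here names 5 of the 10 probe sets (COR47, KIN1/KIN2, COR15A, COR15B and LTI30), and the gene names of the other 5 come from the definition of the set alone. Locus tags were listed by gene name, and RefSeq symbols were then looked up by locus tag in the annotation of TAIR10.1.

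The 4 samples were shoot apices with leaf primordia of the as2-1 mutant, with 10H-CPT in DMSO or with DMSO alone, and of Col-0 with the same 2 treatments. Col-0 is the wild-type accession and also the background of as2-1. This allele disrupts AS2, a gene named after the asymmetric leaves of its mutants, whose nuclear protein is needed for flat, polar leaves. 10H-CPT, a hydroxylated camptothecin dissolved in DMSO, inhibits DNA topoisomerase I (TOP1), and its dose is not given in the labels. Plants grew for 14 days on Murashige and Skoog agar with a daily light period of 16 hours and a dark period of 8 hours, and each group was measured on 1 array, so no difference below has a replicate check. The labels do not say how many plants were pooled or whether the plants were grown side by side.

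COR genes are the downstream end of the plant response to cold and drought. CBF proteins bind the C-repeat (also called the dehydration-responsive element) in their promoters when plants are chilled, and ABF proteins bind the abscisic acid (ABA) responsive element when ABA accumulates. RD29A carries both kinds of element, whereas RD29B and RAB18 respond mainly to ABA and serve widely as ABA reporters. Most of the encoded proteins are very hydrophilic and protect membranes and enzymes when cells lose water.

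The signals are MAS5 intensities, a summary of all probes of a probe set on a linear scale. Signals below a floor of 46.6 (the 40th percentile over the 4 arrays together) were raised to it before ratios were taken. Where the lower of 2 signals was raised in this way, the ratio is a bound and is given with the words at least. Of the 10 probe sets, 7 were above the floor on all 4 arrays, COR15A on 3, and RD29B and RAB18 on none, which left 8 with a ratio. In bulk tissue, fewer cells of a type and less RNA per cell cannot be told apart.

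The median signals lay between 86.0 and 88.3, and GAPC2, a glycolytic enzyme gene often used as a steady reference, spanned only 1.20-fold over the 4 arrays. Of 17 listed markers of the shoot meristem and leaf primordium, 3 had an annotated probe set. The leaf polarity genes YAB3 (180.1 to 254.1) and PHV (409.0 to 640.3) were above the floor on every array, and the stem cell gene CLV3 was below it on all 4 (1.1 to 15). RCA, the Rubisco activase of green leaf tissue, had signals of 2426.2 and 1511.9 in as2-1 on 10H-CPT and on DMSO, against 2754.6 and 2453.8 in Col-0. The part of green tissue in the results was not tested. Neither AS2 nor the TOP1 genes had an annotated probe set, so the labels were not checked against them, and none of 13 listed root and seed markers had one.

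The plot of the signals by array shows several patterns among the COR probe sets. RD29A, ERD10 and COR47 were highest in as2-1 on 10H-CPT and lower in both Col-0 samples. KIN1/KIN2, LTI30 and COR414-TM1 were highest in as2-1 on DMSO and lowest in Col-0 on 10H-CPT. COR15A was lowest in the same Col-0 sample, COR15B was nearly level, and RD29B and RAB18 stayed below the floor. In all, 5 of the 8 with a ratio were highest in as2-1 on 10H-CPT and 3 in as2-1 on DMSO, where 27.1% and 24% of the 14587 probe sets above the floor on any array were. The highest sample was at least 2-fold above the lowest for 7 of the 8, all but COR15B, as for 11.6% of the 14587.

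**Figure D1:**
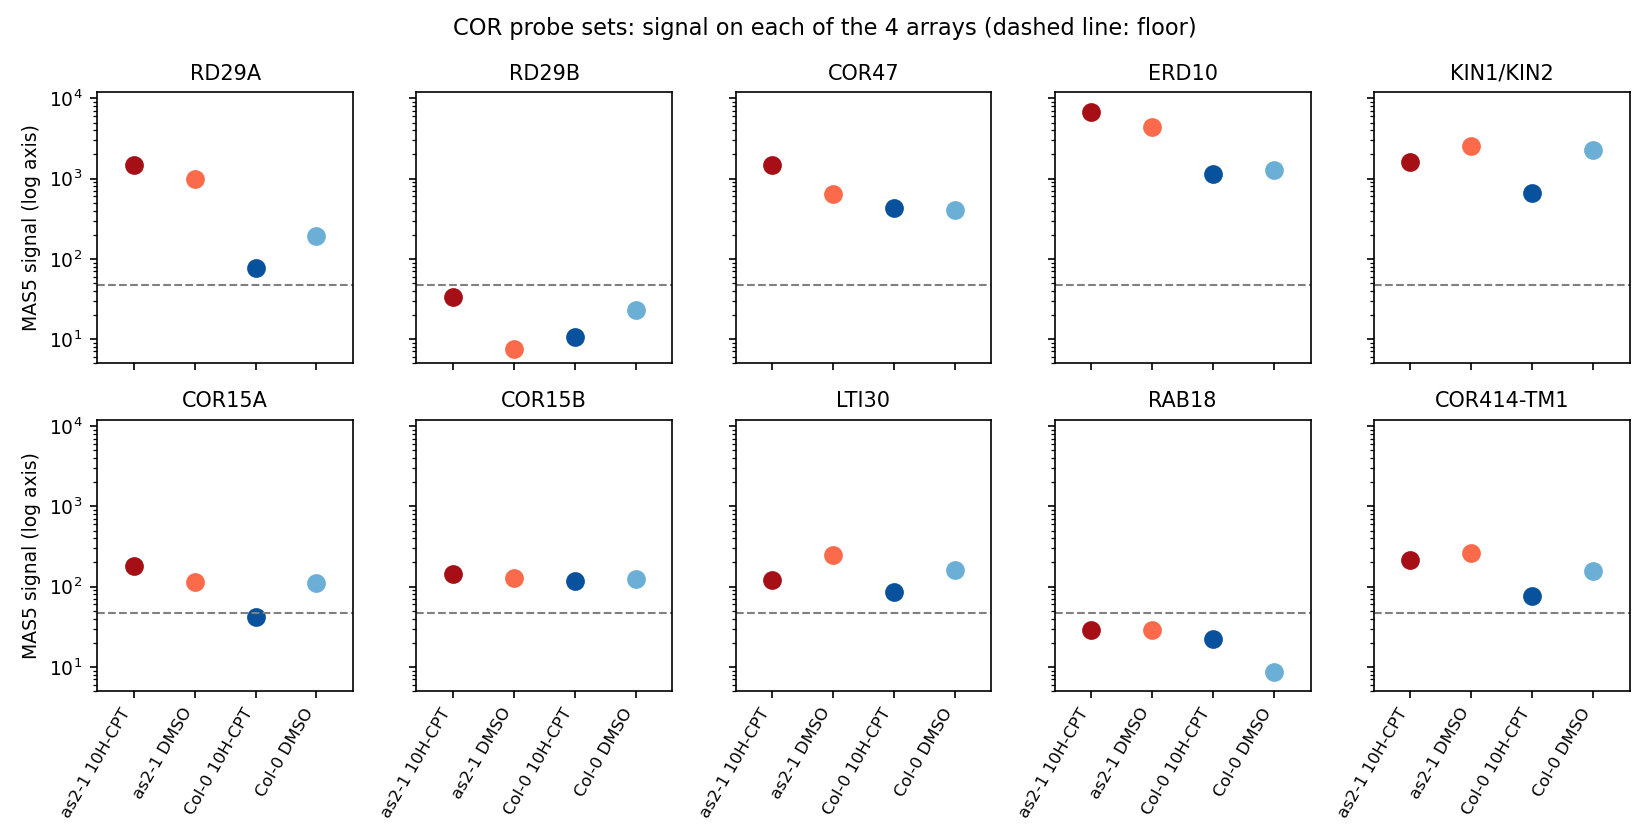
MAS5 signal (vertical log axis) of each of the 10 COR probe sets on the 2 as2-1 arrays (10H-CPT, then DMSO) and the 2 Col-0 arrays in the same order, 1 point per array, with the floor of 46.6 as a dashed line. All 4 points of RD29B and of RAB18 and the Col-0 10H-CPT point of COR15A lie below the floor, and Col-0 on 10H-CPT is the lowest point of 7 of the 8 probe sets with a ratio.

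The first group comprises dehydrins, hydrophilic proteins that bind membranes in drying cells. ERD10 (AT1G20450, 259516_at), an acidic dehydrin, had signals of 6776.1 and 4382.3 in as2-1 on 10H-CPT and on DMSO, against 1130.1 and 1266.9 in Col-0. The signal was higher in as2-1 than in Col-0 in both treatments, as it was for 29.7% of 13629 probe sets measured in both. The mutant excess of ERD10 was 5.99-fold on 10H-CPT and 3.46-fold on DMSO, and the inhibitor went with a 1.54-fold higher signal in as2-1 and a 1.12-fold lower one in Col-0.

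COR47 (AT1G20440, 259570_at), a close relative of ERD10, had signals of 1460.4 and 634.8 in as2-1 on 10H-CPT and on DMSO, against 425.1 and 403.2 in Col-0. As for ERD10, the signal was higher in as2-1 than in Col-0 in both treatments. The mutant excess was 3.43-fold on 10H-CPT and 1.58-fold on DMSO. Between 10H-CPT and DMSO, COR47 differed by 1.20 on the log2 scale in as2-1 and by 0.078 in Col-0, in both cases with the higher signal on 10H-CPT. It was the only one of the 8 COR probe sets with a ratio whose signal in as2-1 on 10H-CPT was at least 2-fold above all 3 other arrays, as were 1.27% of the 14587 probe sets above the floor on any array.

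LTI30 (AT3G50970, 252102_at), a basic dehydrin that attaches to membranes, differed more between treatments than between genotypes. Its signals were 120.4 and 246.7 in as2-1 on 10H-CPT and on DMSO, against 85.1 and 161.9 in Col-0. Its signal was lower on 10H-CPT in both genotypes, as were those of 33.6% of the 13748 probe sets measured in both. LTI30 was 2.05-fold lower on 10H-CPT in as2-1 and 1.90-fold lower in Col-0, while as2-1 exceeded Col-0 by 1.41-fold on 10H-CPT and by 1.53-fold on DMSO.

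RAB18 (AT5G66400, 247095_at), the ABA-responsive dehydrin, had signals of 28.7 and 29.0 in as2-1 on 10H-CPT and on DMSO, against 22.5 and 8.5 in Col-0. All 4 lie below the floor, so the samples were not ordered and no fold was taken. The symbol RAB18 also stands for a small GTPase gene in the RefSeq table, and the dehydrin is meant here.

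The second group holds hydrophilic proteins outside the dehydrin family. RD29A (AT5G52310, 248337_at), the classical reporter of cold and drought signalling, had signals of 1457.6 and 997.0 in as2-1 on 10H-CPT and on DMSO, against 75.9 and 192.5 in Col-0. The genotypes lay far apart in both treatments. Its mutant excess on 10H-CPT, 19.2-fold, was the largest of all 14147 probe sets measured in that comparison, and its excess of 5.19-fold on DMSO ranked 9 of 14069. On the inhibitor RD29A was 1.46-fold higher in as2-1 and 2.53-fold lower in Col-0.

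RD29B (AT5G52300, 248352_at), which lies next to RD29A on chromosome 5 with no protein-coding gene between them in TAIR10.1, was below the floor on every array. Its signals were 33.4 and 7.6 in as2-1 on 10H-CPT and on DMSO, against 10.5 and 22.8 in Col-0. At this brightness no ratio of RD29B was detectable, while its neighbour spanned 19.2-fold over the same 4 samples.

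KIN1 (AT5G15960) and KIN2 (AT5G15970) encode a pair of small, alanine-rich proteins and share 1 probe set, 246481_s_at, so the 2 genes cannot be told apart. The shared signals were 1616.5 and 2549.9 in as2-1 on 10H-CPT and on DMSO, against 665.1 and 2273.9 in Col-0. On DMSO the genotypes were close, with a mutant excess of 1.12-fold. On 10H-CPT the mutant excess was 2.43-fold. KIN1/KIN2 was lower on the inhibitor in both genotypes, 1.58-fold in as2-1 and 3.41-fold in Col-0, and the Col-0 change ranked 59 from the lowest of 14091.

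The third group acts in the chloroplast. COR15A (AT2G42540, 263497_at) and COR15B (AT2G42530, 263495_at) encode stromal proteins that stabilise chloroplast membranes during freezing, and the 2 genes are neighbours on chromosome 2. COR15A had signals of 179.6 and 112.5 in as2-1 on 10H-CPT and on DMSO, against 42.3 and 110.7 in Col-0. The Col-0 sample on 10H-CPT was below the floor and stood apart from the other 3. The mutant excess of COR15A was therefore at least 3.85-fold on 10H-CPT, and it was 1.02-fold on DMSO. It was 1.59-fold higher on the inhibitor in as2-1 and at least 2.37-fold lower in Col-0.

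COR15B was the flattest of the 8 probe sets with a ratio. Its signals were 143.4 and 127.7 in as2-1 on 10H-CPT and on DMSO, against 117.2 and 125.1 in Col-0, a span of 1.22-fold. The neighbouring COR15A spanned at least 3.85-fold on the same arrays, although its signals put the same samples highest and lowest.

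COR414-TM1 (AT1G29395, 259789_at), listed in RefSeq as COR413IM1, encodes a protein of the inner chloroplast envelope. Its signals were 217.4 and 258.7 in as2-1 on 10H-CPT and on DMSO, against 77.3 and 154.8 in Col-0. The signal was higher in as2-1 than in Col-0 in both treatments. The mutant excess was 2.81-fold on 10H-CPT and 1.67-fold on DMSO. In Col-0 the probe set was lower on the inhibitor by only just 2-fold, and it missed that threshold after quantile normalization (-0.98 on the log2 scale). In as2-1 it was 1.19-fold lower on the inhibitor.

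The comparison of genotypes asked which transcripts differed when AS2 was mutated. On DMSO, 2 of the 8 COR probe sets with a ratio, RD29A and ERD10, exceeded Col-0 by 2-fold or more in as2-1, and none was at least 2-fold lower. Among 14069 measured probe sets, 1.04% were higher and 1.09% lower by that much. On 10H-CPT, 6 of the 8 were at least 2-fold higher (RD29A, ERD10, COR15A, COR47, COR414-TM1 and KIN1/KIN2) and none at least 2-fold lower, where 2.69% and 1.57% of 14147 were. RD29A and ERD10 were past 2-fold in both treatments, as were 0.345% of 13629 probe sets measured in both, and none was at least 2-fold lower in both, as were 0.477%. These 2 pairs of samples share no array. All 8 probe sets with a ratio had a higher signal in as2-1 in both treatments, by 0.03 on the log2 scale on DMSO for COR15A and for COR15B, and 29.7% of the 13629 had such a pair of signs. The median over the 10, with RD29B and RAB18 at 0 because both sides are at the floor, was 0.39 on the log2 scale on DMSO and 1.39 on 10H-CPT. Over the 8 with a ratio it was 0.63 and 1.63. Over all measured probe sets, which likewise leave out those at the floor on both sides, the medians were 0.0079 and -0.0070.

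**Figure D2:**
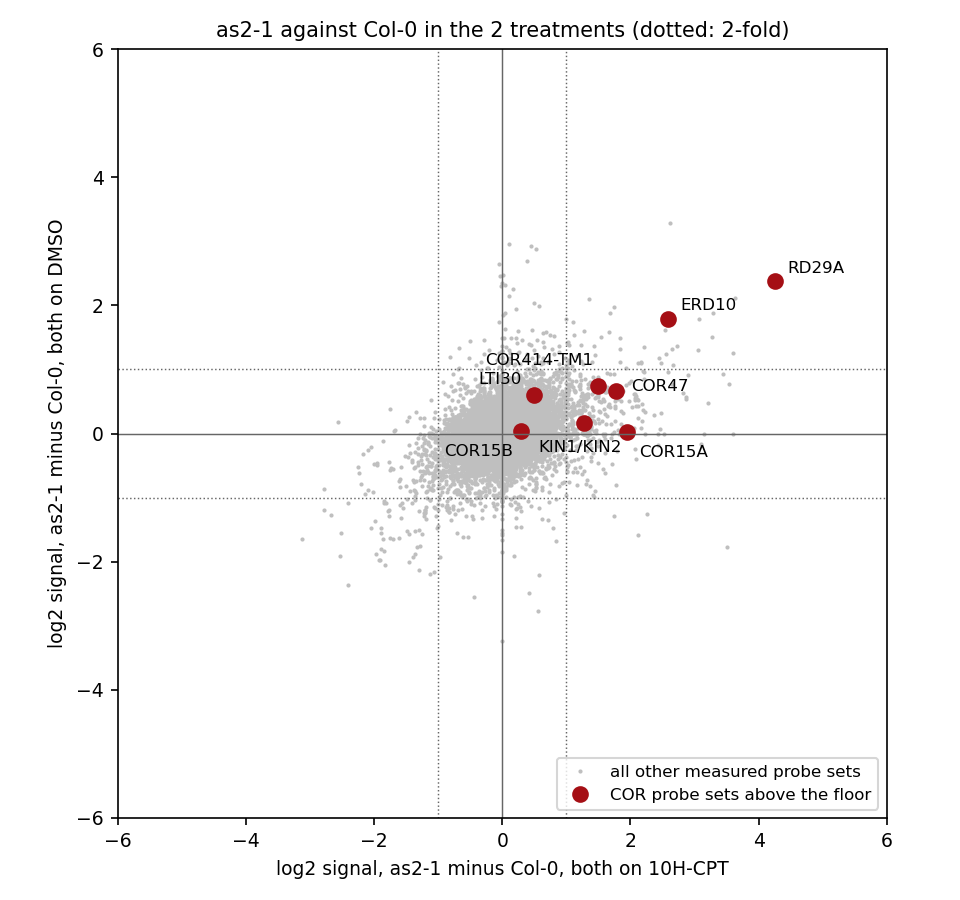
Difference of log2 signal, as2-1 minus Col-0, with both on 10H-CPT (horizontal axis) and with both on DMSO (vertical axis), 1 point per probe set above the floor on any array, COR probe sets in red and dotted lines at 2-fold. All 8 red points lie at or right of 0.29 and above 0, RD29A (4.26 and 2.37) and ERD10 (2.58 and 1.79) lie past both 2-fold lines, and COR15A (at least 1.94) sits at 0.03 on the vertical axis.

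The comparison of treatments asked how the TOP1 inhibitor altered the same transcripts in each genotype. In as2-1, COR47 was at least 2-fold higher and LTI30 at least 2-fold lower on 10H-CPT, 1 probe set each of the 8 with a ratio. Of 14244 measured probe sets, 2.96% were higher and 2.3% lower by that much. In Col-0, 4 of the 8 were at least 2-fold lower (KIN1/KIN2, RD29A, COR15A and COR414-TM1) and none at least 2-fold higher, where 2.1% and 1.55% of 14091 were. No COR probe set passed 2-fold in the same direction in both genotypes, as 0.786% (higher) and 0.989% (lower) of 13748 did. Their median over the 10, with RD29B and RAB18 at 0, was 0.083 on the log2 scale in as2-1 and -0.54 in Col-0. Over the 8 with a ratio it was 0.36 and -0.96, beside -0.021 and -0.0067 over all measured probe sets. KIN1/KIN2, LTI30 and COR414-TM1 were lower on 10H-CPT in both genotypes by some amount, as were 33.6% of the 13748. The genotype and treatment comparisons share arrays, and a chance value of the single Col-0 array on 10H-CPT would enter both.

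**Figure D3:**
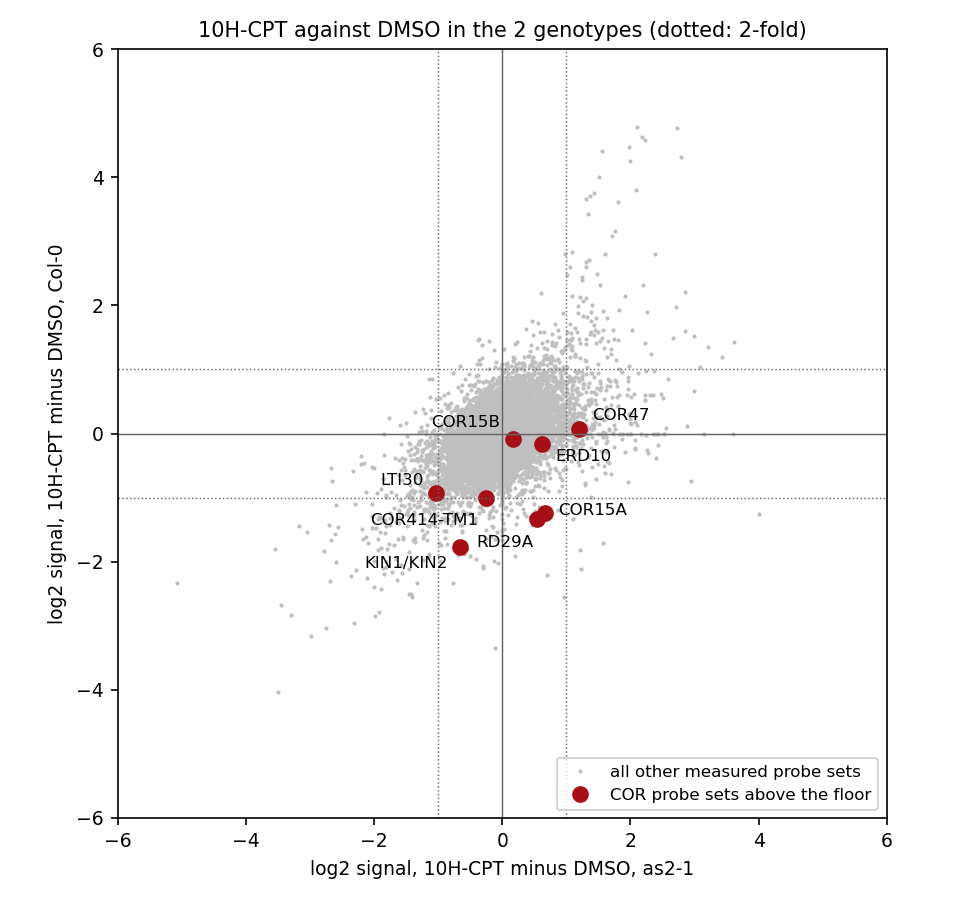
Difference of log2 signal, 10H-CPT minus DMSO, in as2-1 (horizontal axis) and in Col-0 (vertical axis), 1 point per probe set above the floor on any array, COR probe sets in red and dotted lines at 2-fold. Of the 8 red points only COR47 lies above 0 on the Col-0 axis (0.078), and RD29A (0.55 and -1.34) and COR15A (0.67 and at most -1.25) lie right of 0 in as2-1 and below the lower dotted line in Col-0.

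The sample of Col-0 on 10H-CPT was the lowest of the 4 for 7 of the 8 COR probe sets with a ratio, and it was the lowest for 25.9% of the 14587. The exception, COR47, was lowest in Col-0 on DMSO, as were 23.5%. For RD29A, KIN1/KIN2, COR15A and COR414-TM1 the Col-0 sample on 10H-CPT was at least 2-fold below all 3 other samples, which was the case for 25 of the 14587 (0.171%). COR414-TM1 reached that by the narrow margin given above. With 1 array in the group, a chance value of that array and an effect of the inhibitor in the wild type cannot be told apart.

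The treated mutant was also set against the untreated wild type. With both mutation and inhibitor, RD29A was 7.57-fold, ERD10 5.35-fold and COR47 3.62-fold higher than with neither. These 3 of the 8 with a ratio were the ones past 2-fold, where 4.27% of 14269 were at least 2-fold higher. None was at least 2-fold lower, as 3.53% were. COR15A (1.62-fold higher), COR414-TM1 (1.40-fold higher), COR15B (1.15-fold higher), LTI30 (1.34-fold lower) and KIN1/KIN2 (1.41-fold lower) stayed within 2-fold. The median over the 10, with RD29B and RAB18 at 0, was 0.34 on the log2 scale. Over the 8 with a ratio it was 0.59, beside -0.014 over all measured probe sets.

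Whether the change on the inhibitor differed between genotypes was measured as the log2 change in as2-1 minus that in Col-0. COR15A (at least 1.92), RD29A (1.89), COR47 (1.12) and KIN1/KIN2 (1.11) passed 1, the equivalent of 2-fold, as did 2.59% of 14587. ERD10 (0.79), COR414-TM1 (0.75), COR15B (0.26) and LTI30 (-0.11) did not, and none of the 8 with a ratio lay at -1 or below, where 1.29% did. After quantile normalization ERD10 passed too (1.05), which made 5. The 4 that passed reached this in different ways. RD29A and COR15A were higher on the inhibitor in as2-1 and lower in Col-0, COR47 was higher in as2-1 and nearly level in Col-0, and KIN1/KIN2 was lower in both but less so in as2-1. With ERD10 and COR15B, RD29A and COR15A were 4 of the 8 that were above DMSO in as2-1 and below it in Col-0, as were 17.2% of 13748. This difference uses all 4 arrays and has no test.

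Other thresholds gave other counts. At 1.5-fold, 5 of the 8 with a ratio were higher in as2-1 than in Col-0 on DMSO and none lower, where 4.55% and 4.24% were. At 1.5-fold in as2-1, 3 were higher on 10H-CPT and 2 lower, where 7.84% and 7.58% were. At 3-fold none was past the threshold on 10H-CPT in as2-1, where 0.934% were higher and 0.66% lower. At 3-fold in Col-0, KIN1/KIN2 was lower on 10H-CPT and none was higher, where 0.596% and 0.483% were. The difference of the inhibitor changes passed 3-fold upwards for COR15A and RD29A and downwards for none, where 0.782% and 0.281% did.

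Of the 11 genes, 8 lie in close pairs with each other along the chromosomes. RD29A and RD29B, COR47 and ERD10, KIN1 and KIN2, and COR15A and COR15B are each adjacent in the RefSeq annotation of TAIR10.1, with 0 protein-coding genes between them. Of the 3 pairs with a probe set per gene, COR47 and ERD10 had a higher signal in as2-1 in both treatments by at least 1.58-fold. In the remaining pairs RD29B was below the floor beside RD29A, and COR15B was level within 1.22-fold beside COR15A. LTI30 and COR414-TM1 are adjacent in the same way to XERO1 and COR413IM2, which are outside the set. Adjacent copies of similar sequence may share some probes' signal, and how far the probe sets separate them was not tested.

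Other genes of the cold and ABA pathways could be followed only in part. Of 83 listed loci in 8 lists, 3 had an annotated probe set, and those for ABA synthesis, breakdown, receptors, phosphatases, kinases and transcription factors had none. ZAT10, a zinc finger repressor induced by cold and other stresses, was above the floor only in Col-0 on 10H-CPT, with a signal of 48.5, and lay between 32.5 and 38.3 in the other 3 samples. LEA4-5, which encodes a late embryogenesis abundant protein of seeds and drying tissue, had a signal of 83.8 in as2-1 on 10H-CPT and of 0.9 in as2-1 on DMSO, against 0.8 and 2.5 in Col-0. Only the treated mutant was above the floor, by 1.80-fold. HIRD11 (AT1G54410), a histidine-rich dehydrin, had signals of 6684.3 and 10433.3 in as2-1 on 10H-CPT and on DMSO, against 6596.7 and 7794.1 in Col-0, and spanned 1.58-fold. With low signals raised to the floor, none of these 3 was past 2-fold in any comparison, and the ratios of ZAT10 and LEA4-5 are bounds.

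For a median profile the 10 COR probe sets were each centred on their own mean log2 signal, with RD29B and RAB18 flat at 0. This profile was 0.30 in as2-1 on 10H-CPT, 0.42 in as2-1 on DMSO, -0.90 in Col-0 on 10H-CPT and -0.017 in Col-0 on DMSO. COR414-TM1 lay nearest to it, with a root mean square difference over the 4 samples of 0.17, and RD29A farthest, with 1.28. The search for similar profiles took in 12710 other probe sets, those whose 4 signals all exceeded the floor, and the 8 nearest differed from it by 0.10 to 0.12. The 5 of these with an annotated gene were AT1G76020, AT5G46230, ARPN (which encodes plantacyanin, a small copper protein), AT1G67850 and AT1G11210. AT5G46230, for example, had signals of 125.7 and 116.5 in as2-1 on 10H-CPT and on DMSO, against 48.6 and 96.0 in Col-0. Likeness over 4 samples is a weak criterion, since so few points allow many probe sets to come close.

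**Figure D4:**
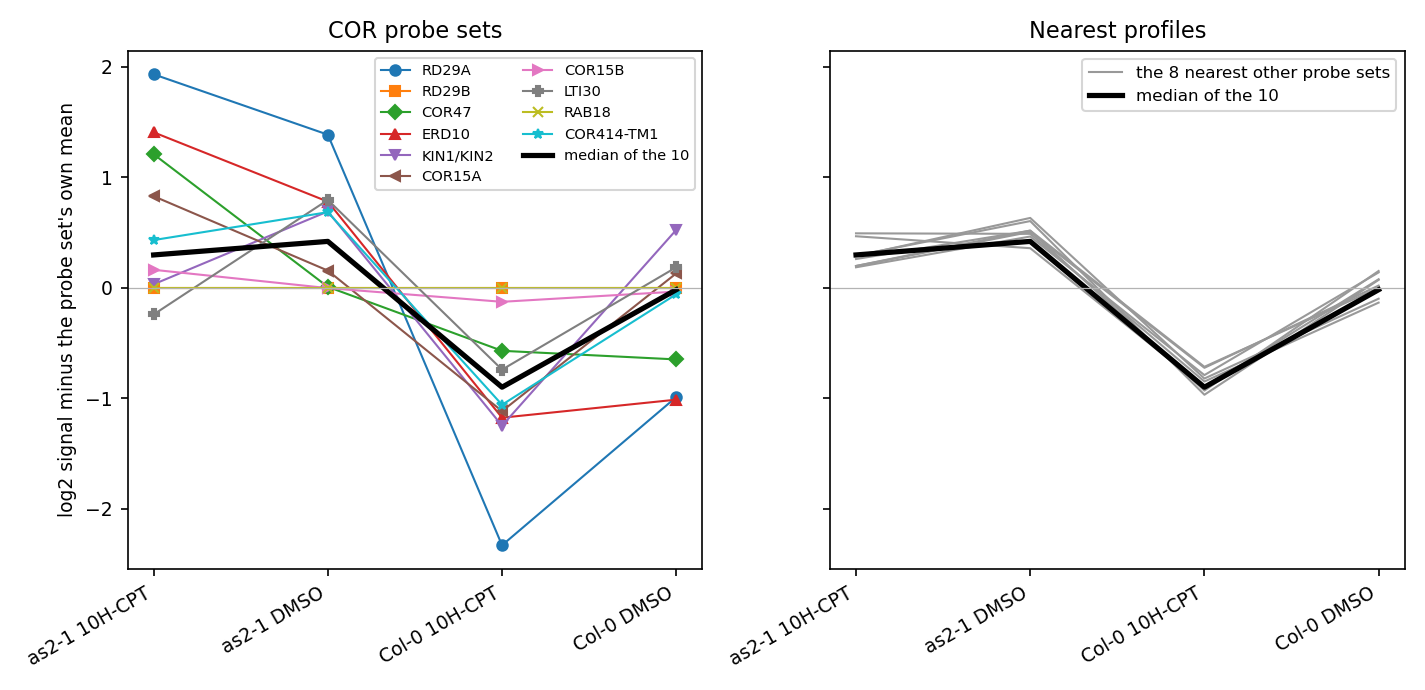
Log2 signal minus the probe set's own mean over the 4 arrays (vertical axis) on the 2 as2-1 arrays (10H-CPT, then DMSO) and the 2 Col-0 arrays in the same order, for the 10 COR probe sets (left, 1 line each, RD29B and RAB18 flat because they are at the floor) and for the 8 nearest other probe sets (right, grey), with the median of the 10 in black. The black line dips to -0.90 in Col-0 on 10H-CPT, and RD29A runs widest around it, between 1.93 and -2.33.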

How the data were processed

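Biotinylated cRNA from total RNA was hybridised to Affymetrix arrays, per the labels' protocols, 1 array for each of 4 samples. The deposited values are MAS5 signal intensities on a linear scale, per the submitters' processing notes. Neither its version nor a scaling target is stated there. Here the arrays were rescaled to one trimmed mean (2% left out at each end, factors 0.9994 to 1.0006), floored at the 40th percentile and put on a log2 scale. A probe set was measured in a comparison when 1 of its arrays was above the floor. The threshold was 2-fold, with no test and no p-value. GEO's platform annotation pairs 13513 probe sets with 1 gene, 503 with several and 8730 with none. The members, lists and rules were chosen with earlier results of these data known. All members were named; from each list, those past 2-fold in both pairs of a factor, or else the one changed most; and the 8 nearest profiles. HIRD11 was added to make the matched genes complete. The ratios, counts and profile search were checked on simulated arrays without noise. Changes were set there in bright probe sets only, so noise and probe sets near the floor were not covered. Scripts ran in Python 3.11.15 with pandas 2.3.3, numpy 2.4.6 and scipy 1.17.1, and plots were drawn with matplotlib 3.10.9. Tried as alternatives were no rescaling, quantile normalization, other floors (20th or 60th percentile), thresholds of 1.5-fold and 3-fold, and omission of probe sets shared by several genes. The number of arrays limits the precision.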

Additional observations from a re-analysis of the deposited data

Results flagged for a closer look

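For 4 COR probe sets the signal on 10H-CPT was above that on DMSO in as2-1 and below it in Col-0, as for 17.2% of the 13748 probe sets measured in both genotypes. With 1 array per group the difference between the genotypes was not tested. It was 1.89 on the log2 scale for RD29A and at least 1.92 for COR15A, and both were past 2-fold lower in Col-0. It was 0.79 for ERD10 and 0.26 for COR15B, whose changes stayed within 2-fold in each genotype.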

How the results depend on the processing

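Omitting the rescaling, quantile normalization or omitting shared probe sets kept every count of COR probe sets within 1.5 times and every median within 0.5 on the log2 scale; COR414-TM1 dropping out left 3 of 4 lower on 10H-CPT in Col-0 after quantile normalization, and ERD10 (1.05) made 5 in place of 4 in the difference of inhibitor changes. With a floor at the 20th percentile (9.90), RD29B and RAB18 gained ratios, and the count past 2-fold between genotypes on DMSO was 4 (3 higher, 1 lower) in place of 2. It was then 6 on the inhibitor in Col-0 (1 higher, RAB18, and 5 lower) and 6 in the difference of inhibitor changes (5 upwards, with RD29B at least 2.87, and 1 downwards, RAB18 at most -1.20), in place of 4 each in 1 direction. With a floor at the 60th percentile (137.3), where 3 of the 10 were above it on all arrays, the count on the inhibitor was 1 in as2-1 and 1 in Col-0, in place of 2 and 4. The median between genotypes on 10H-CPT was then 0.52, and that of the difference of inhibitor changes 0.22, since more signals were set to the floor. For RD29A the difference of inhibitor changes was then at least 1.03 on the log2 scale, in place of 1.89. With a 1.5-fold threshold 5 passed between genotypes on DMSO and 5 on the inhibitor in as2-1. With a 3-fold threshold 0 passed on the inhibitor in as2-1, 1 in Col-0, and 2 in the difference of inhibitor changes. No change of 2-fold or more turned its sign. The labels give no replicate numbers to pair samples by, and a fit with the other factor as a block was not run.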
